A study of Mus musculus with 7 samples.

Results

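The genes described here are those whose symbols begin with Kcn, Scn, Cacna, Cacnb or Hcn, which name subunits of potassium, sodium, calcium and hyperpolarization-activated cation channels; Kcnj8 and the Cacng genes were left out. There were 116 such genes among the 18194 genes named by single-gene probe sets, with 242 probe sets. They comprised 83 Kcn, 15 Scn, 16 Cacna or Cacnb and 2 Hcn symbols. By name, 4 of them are no channel subunit: the noncoding RNAs Kcnq1ot1, Kcnmb4os1 and Kcnmb4os2, and Scnm1, a splicing factor. Of the 116, 52 passed the filter on dim signal, which required a value at or above the array median on at least 3 of the 7 arrays, and were tested.

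The cells are described as granule neuron precursors, the dividing cells of the young cerebellum that become its granule neurons. They came from mice with the genotype Math1-Cre/Ptc-loxp/Nestin-CFP and were taken without culture or treatment. Both groups therefore share the Cre driver, which acts in cells of the Math1 (Atoh1) lineage, the floxed Ptch1 allele and the reporter. No group of another genotype was compared, and whether Ptch1 was deleted in every sorted cell was not tested. Markers of several other cell types differed between the groups, as given below. Flow cytometry separated the cells by the CFP reporter, giving 4 Nestin-positive samples (replicates 1, 3, 4 and 5) and 3 Nestin-negative samples (replicates 1, 4 and 5), each on 1 Affymetrix Mouse Genome 430 2.0 array. The sample labels give postnatal day 7 and call the tissue medulloblastoma, whereas the text on the series gives day 4. Nothing in the labels says how many animals went into a sample, so p-values measure the spread between these samples, part of which may be technical.

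Voltage-gated channels open when the membrane is depolarised. Sodium channels carry the upstroke of the action potential, potassium channels end it and set the interval to the next, and calcium channels couple it to transmitter release and to signalling in the nucleus. Leak and inward rectifier potassium channels hold the resting potential. Pore-forming subunits (Kcna to Kcnd, Scn alpha, Cacna1) work with auxiliary subunits that set their traffic and kinetics. In the cerebellum, granule cells acquire their channels as they leave the cell cycle and migrate inward, and the mature cell is known for A-type potassium current and a large resting leak.

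Promoter windows are shown for Kcnd2 and Kcnk2, which are among the 3 channel genes that fell, so that their start regions can be read beside their values. Each run is the 250 bases before a RefSeq transcript start in GRCm38.p6, read 5′ to 3′ on the gene's strand. Of the 116 genes, 87 matched the RefSeq promoter table, with 121 windows. For Kcnk2 the table gives 4 starts, and the window that holds a GC box is shown. Capitals mark the motifs that were found.
Kcnd2, chr6:21215096-21215345, plus strand: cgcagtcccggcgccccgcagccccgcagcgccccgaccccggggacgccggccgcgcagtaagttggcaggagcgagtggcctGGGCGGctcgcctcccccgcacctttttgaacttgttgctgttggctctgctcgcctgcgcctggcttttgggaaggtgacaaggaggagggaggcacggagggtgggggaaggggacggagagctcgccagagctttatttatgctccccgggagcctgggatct
Kcnk2, chr1:189343708-189343957, minus strand: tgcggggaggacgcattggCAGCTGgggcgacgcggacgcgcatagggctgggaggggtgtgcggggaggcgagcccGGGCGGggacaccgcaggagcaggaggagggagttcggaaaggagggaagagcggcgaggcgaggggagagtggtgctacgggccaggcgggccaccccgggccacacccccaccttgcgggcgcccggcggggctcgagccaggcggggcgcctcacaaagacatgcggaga

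Both windows are rich in G and C (68.8% and 74.4%, against a median of 52.4% over 32851 windows of all genes and 58.8% over the channel windows). The Kcnk2 window shown is the richest of its 4, and the others have 42.4%, 53.2% and 70.4%. Motifs were searched on both strands. They were the GC box bound by Sp factors (GGGCGG), the E-boxes bound by bHLH factors (CAGCTG or, as the other form, CAGATG), the TATA box (TATAAA) and the cyclic AMP response element (TGACGTCA). These motifs do not overlap in the printed windows. The GC box stood in 45.5% of the channel windows and in 32.7% of all windows; among tested genes it stood in 45.8% of 59 channel windows and 58.7% of 11680 windows in all. CAGCTG stood in 25.6% of the channel windows and 13.0% of all, CAGATG in 15.7% and 14.4%, and TATAAA in 4.13% and 12.4%. Among tested genes these pairs of shares were 18.6% and 11.8%, 10.2% and 9.87%, and 3.39% and 6.06%. TGACGTCA was in 0 of the 121 channel windows and in 1.55% of all. Of the other 3 Kcnk2 windows, 1 holds CAGATG, 1 holds the E-box CAGCTG and 1 holds no motif of these. A match describes these letters and is no evidence of binding.

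The sort marker read as labelled. Nes, which encodes Nestin, read 643 ± 161 (SD, n = 4) where the reporter was on and 190.3 ± 23.5 (SD, n = 3) where it was off (limma, adjusted p = 0.0282), which checks the labels and is no finding. Of 18 precursor markers tested, 0 passed limma's test (8 at an unadjusted p under 0.05), and their median log2 difference was -0.02. With the replicate number as a block 4 were higher (Atoh1, Barhl1, Ccnd1 and Cxcr4) and 3 lower (Zic4, Neurod1 and Rbfox1). That fit called 3.58% of all genes tested higher and 6.39% lower. The median near 0 therefore covers markers that went both ways and does not show that the groups were alike. The precursor list holds Neurod1 and Rbfox1, whose relatives Neurod2, Neurod6 and Rbfox3 stand in the differentiation list used below. It may thus mix stages of the lineage. Array medians, the level under which a signal is called dim here, lay between 64.4 and 94.5. Samples of equal replicate number deviated together, so a fit with that number as a block is given wherever it changes a call.

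Potassium channel genes of 2 families fell in Nestin-positive cells: the voltage-gated pores Kcnd2 and Kcna1 and the leak channel Kcnk2. They were 2.74-fold, 3.23-fold and 2.14-fold lower, and 0 of the 52 tested channel genes were higher (limma, Benjamini-Hochberg adjusted over 11089 genes). The 3 genes are 5.77% of the 52 tested, where 0.577% of all genes tested were called lower and 0.171% higher. With the replicate block 12 channel genes, or 23.1%, were lower and 0 higher, where 6.39% of all genes were lower and 3.58% higher. Fitted differences were below 0 for 44 of the 52, or 84.6%, against 54.5% of all genes tested, and their median was -0.40 against -0.03. A gene can pass the dim filter through the Nestin-negative arrays alone, as Cacna2d2 did, so these shares describe the genes that passed and not all 116. Kcna2 and Cacnb1 were close to this, with 1 Nestin-positive and 3 Nestin-negative arrays at or above the median. Without Cacna2d2 the blocked count was 11 of 51, or 21.6%, with Kcna2 still in it. Without the filter, 83 of the 116 differences were below 0 (71.6%, against 55.9% of 18194 genes), with a median of -0.32 against -0.05.

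**Figure D1:**
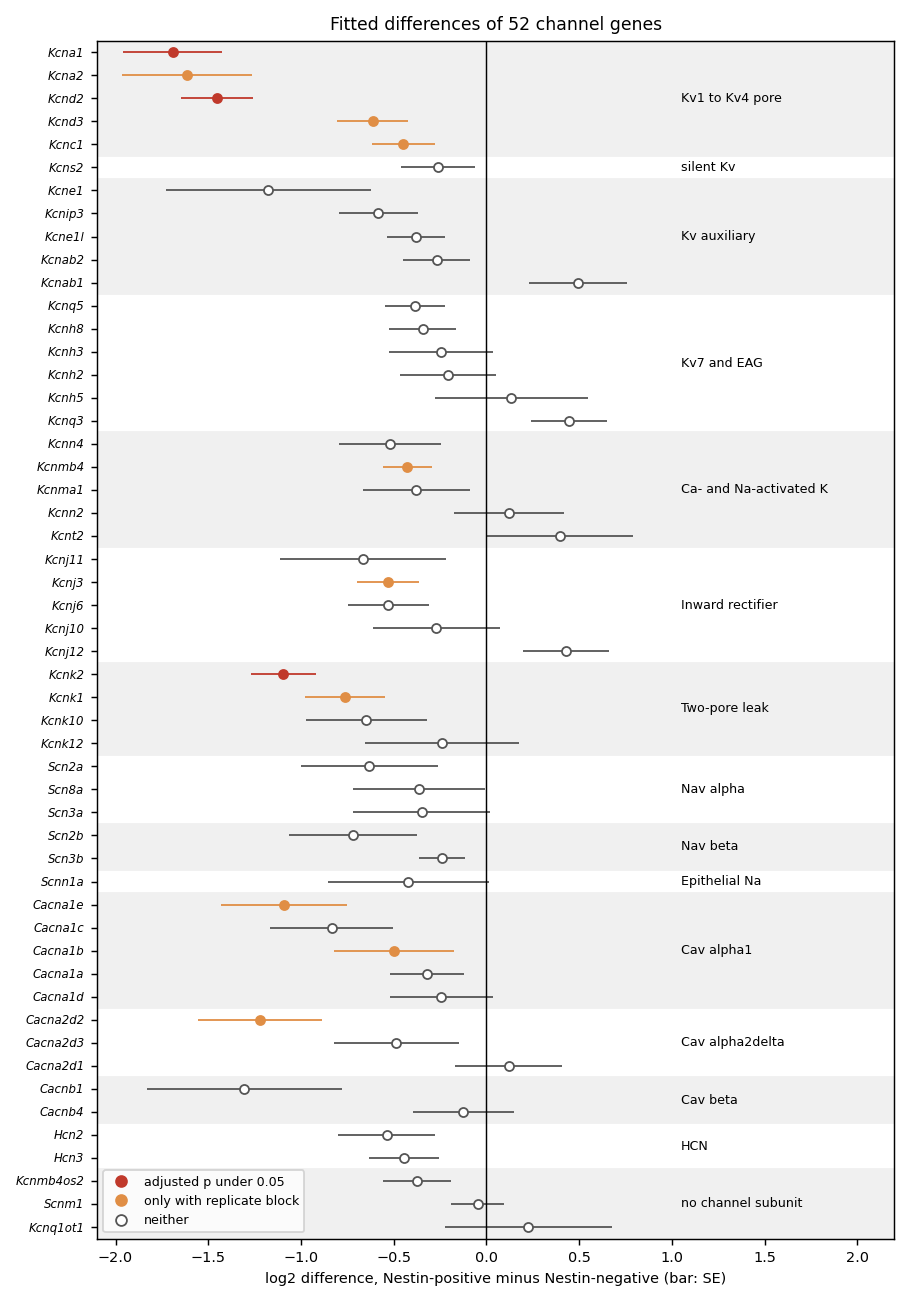
Fitted log2 differences (Nestin-positive minus Nestin-negative, points) with their standard errors (bars) for the 52 tested channel genes, grouped by kind of subunit. Red points passed limma's test, orange points passed with the replicate block alone, and open points passed neither; 44 of 52 points lie left of 0.

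The call of these 3 genes depended on single arrays. The count was 1 (Kcnd2) without Nestin-positive replicate 1, 2 (Kcnd2 and Kcna1) without Nestin-positive replicate 3 and 4 (with Kcna2 added) without Nestin-positive replicate 4. It was 0 without Nestin-positive replicate 5 and 0 without any one of Nestin-negative replicates 1, 4 and 5, as it was with quantile normalization, median centring or no intensity trend. Without Nestin-positive replicate 4, Kcna2 was dim on every Nestin-positive array left, so a difference was built into its added call. The differences of the 3 genes kept their sign under all these settings, and their adjusted p-values with an array left out lay between 0.0197 and 0.149. Adjusted p-values of Nes, the sort marker, lay between 0.0161 and 0.118 in the same limma fits, so its call depended on single arrays too. The blocked count was 9 without pair 1, 14 (13 lower and Kcnq3 higher) without pair 4 and 9 without pair 5, and 7 genes were called lower in all 4 of these fits: Kcnd2, Kcna1, Kcna2, Kcnd3, Kcnk1, Kcnk2 and Kcnj3. Of these, Kcna2 carries the limit of the filter given above. The share of all genes called is not given for fits without an array or a pair, or with other scaling or moderation. Counts from those fits cannot be set against a background.

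Among voltage-gated pore subunits, all 5 that were tested (Kcnd2, Kcna1, Kcna2, Kcnd3 and Kcnc1) were lower with the block, with a median log2 difference of -1.45 in the fit without it. For Kcna2 the Nestin-negative arrays alone met the dim filter, so its place among the 5 was partly fixed by that filter. Kcnd2 encodes a Shal-type pore that carries the transient A-type current of granule cells. Its signal on Nestin-positive replicates 1, 3, 4 and 5 was 256, 403, 406 and 426, and on Nestin-negative replicates 1, 4 and 5 it was 982, 1144 and 892. All 4 Nestin-positive values lay well under the lowest Nestin-negative one. The log2 difference was -1.45 ± 0.20 (SE; limma, adjusted p = 0.0282), and the exact permutation p, two-sided over 35 splits, was 0.0286, which is the smallest possible with 4 arrays against 3. With the block it was -1.50 ± 0.15 (adjusted p = 1.03e-06).

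Kcna1 encodes a Shaker-type pore that sits along axons and at terminals and limits repetitive firing. Its signal was 169, 97.7, 144 and 203 on Nestin-positive replicates 1, 3, 4 and 5, against 627, 399.5 and 436 on Nestin-negative replicates 1, 4 and 5. These groups were apart, with Nestin-positive replicate 3 lowest and Nestin-negative replicate 1 highest. On the log2 scale the difference was -1.69 ± 0.27 (SE; limma, adjusted p = 0.0328), and -1.49 ± 0.18 with the block (adjusted p = 1.31e-05).

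Kcna2, whose product forms mixed tetramers with that of Kcna1, read 39.0, 34.8, 79.7 and 39.2 on Nestin-positive replicates 1, 3, 4 and 5, and 139, 148 and 129.7 on Nestin-negative replicates 1, 4 and 5. Only Nestin-positive replicate 4 reached its array median, so the size of the difference is uncertain. It was -1.61 ± 0.35 (SE) on the log2 scale without the block (adjusted p = 0.0752) and -1.49 ± 0.33 with it (adjusted p = 0.00507). With dim values raised to the array median the difference without the block was -0.77. Since the Nestin-negative arrays of Kcna2 alone met the filter, a difference was partly built into its selection.

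Kcnd3, a second Shal-type pore gene, gave 829.6, 934, 621 and 729 on Nestin-positive replicates 1, 3, 4 and 5, and 1470.0, 1212 and 915 on Nestin-negative replicates 1, 4 and 5. These groups overlapped, because Nestin-positive replicate 3 exceeded Nestin-negative replicate 5, but each Nestin-negative sample was higher than the Nestin-positive sample of its own number. Limma gave a log2 difference of -0.61 ± 0.19 (SE, adjusted p = 0.172), and -0.71 ± 0.13 with the block (adjusted p = 0.000983). Kcnc1, a Shaw-type pore for fast repolarisation, ranged from 376 to 462 in Nestin-positive and from 449.8 to 683 in Nestin-negative samples. Its log2 difference was -0.45 ± 0.17 (adjusted p = 0.255), and -0.45 ± 0.13 with the block (adjusted p = 0.0380). The other 8 genes of the Kv1 to Kv4 group, Kcna3 to Kcna7 among them, did not pass the dim filter. Of these, the Shaw-type gene Kcnc2 leaned the other way, at 67.5 to 84.7 on Nestin-positive and 22.1 to 56.6 on Nestin-negative arrays, without overlap. The brighter Kcnc4 probe set, at 39.5 to 73.1 and 20.4 to 47.9, was also higher on the Nestin-positive side of all 3 pairs. Both lay near or below the array medians and were not tested.

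**Figure D2:**
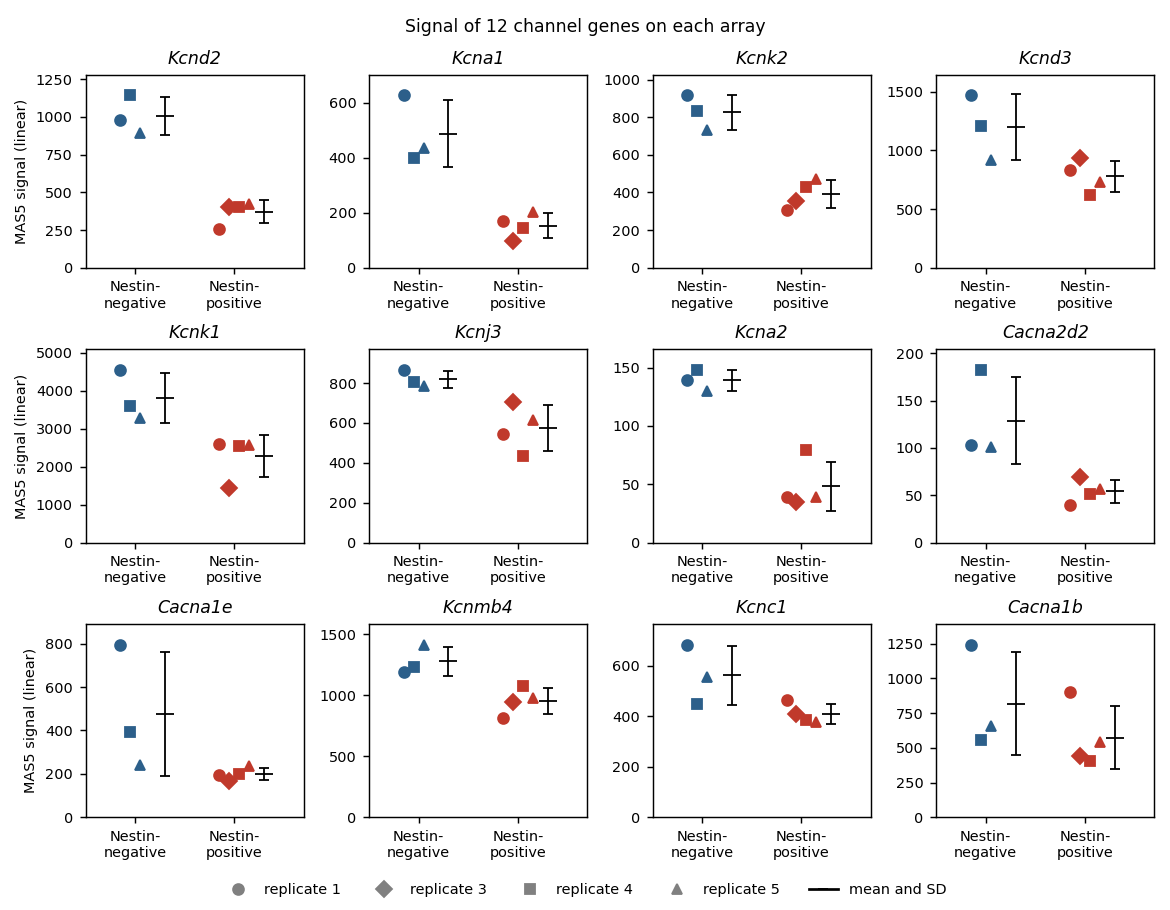
MAS5 signal (linear scale from 0) on each array for the 12 channel genes that were lower with the replicate block, Nestin-negative in blue and Nestin-positive in red; symbols give the replicate number and bars the mean ± SD. Kcnd2, Kcna1 and Kcnk2 show clear gaps between the groups, while for Kcnd3, Kcnc1 and Cacna1b the ranges overlap.

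Leak channels of the tandem-pore-domain family were the other group with a called gene. Kcnk2, a TREK-type channel gated by stretch, lipids and pH, read 308, 353, 427 and 473 on Nestin-positive replicates 1, 3, 4 and 5, and 916, 831 and 729 on Nestin-negative replicates 1, 4 and 5. No Nestin-positive value reached the Nestin-negative range. This is a log2 difference of -1.09 ± 0.17 (SE; limma, adjusted p = 0.0328), and -1.05 ± 0.15 with the block (adjusted p = 0.000113).

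Kcnk1, a TWIK-type leak channel, had signals of 2589, 1449, 2546 and 2558 on Nestin-positive replicates 1, 3, 4 and 5, and 4546, 3604 and 3280.4 on Nestin-negative replicates 1, 4 and 5. These groups were apart, and Nestin-positive replicate 3 stood below the other 3 arrays of its group. Its log2 difference was -0.76 ± 0.21 (SE, adjusted p = 0.139), and -0.56 ± 0.11 with the block (adjusted p = 0.00178). Kcnk10, related to Kcnk2, ranged from 55.8 to 78.7 and from 82.5 to 172, so that the groups did not overlap, with a log2 difference of -0.65 ± 0.33 (adjusted p = 0.417). Kcnk12 differed by -0.24 ± 0.41, and the other 8 family members, Kcnk3 included, were too dim to test.

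Of 5 inward rectifier genes tested, 1 was lower with the block and 0 without it (limma; 2 at an unadjusted p under 0.05). Kcnj3, a subunit of the channels opened by G proteins, read 543, 707, 436 and 615 on Nestin-positive replicates 1, 3, 4 and 5, and 866, 804 and 785 on Nestin-negative replicates 1, 4 and 5. Even the highest Nestin-positive array, replicate 3, fell short of every Nestin-negative one. Its log2 difference was -0.53 ± 0.17 (SE, adjusted p = 0.181), and -0.64 ± 0.13 with the block (adjusted p = 0.00254). Kcnj6, its partner subunit and the gene mutated in the weaver mouse, whose granule cells die, ranged from 161 to 245 and from 250.1 to 364. The difference for Kcnj6 was -0.53 ± 0.22 (adjusted p = 0.303, or 0.101 blocked).

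Kcnj11, the pore of the ATP-sensitive channel, was 1016, 965 and 839 on Nestin-positive replicates 1, 4 and 5 but 230.1 on replicate 3, against 966 to 1173 in Nestin-negative samples. Its difference of -0.67 ± 0.45 became -0.16 ± 0.12 with the block, which does not use Nestin-positive replicate 3 for want of a partner. Kcnj10, best known from astrocytes, differed by -0.27 ± 0.34 and was at its lowest on replicate 1 of both groups (98.8 and 98.7). Kcnj12 leaned the other way, by 0.43 ± 0.23 (adjusted p = 0.457), and was brighter in the Nestin-positive member of each of the 3 pairs.

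Among channels opened by calcium or sodium, Kcnmb4, the neuronal beta subunit of the large-conductance (BK) channel, was lower with the block. It read 814, 949, 1079.7 and 975 on Nestin-positive replicates 1, 3, 4 and 5, and 1191, 1232 and 1415 on Nestin-negative replicates 1, 4 and 5, with no overlap. The log2 difference was -0.43 ± 0.13 (SE, adjusted p = 0.173), and -0.43 ± 0.12 with the block (adjusted p = 0.0216). The BK pore gene Kcnma1, with signal close to the array medians, differed by -0.38 ± 0.29 (adjusted p = 0.617). Kcnn4, an intermediate-conductance channel also known from immune cells, differed by -0.52 ± 0.28 (adjusted p = 0.443), without overlap of the groups. Kcnn2 and the sodium-activated Kcnt2 had differences of 0.12 ± 0.29 and 0.40 ± 0.40.

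M-current and EAG-type genes went both ways and 0 of the 6 tested passed, with or without the block (limma; 1, Kcnq5, at an unadjusted p under 0.05). Kcnq5 was the steadiest, at 190.5 to 199.9 on Nestin-positive and 235 to 291 on Nestin-negative arrays, a log2 difference of -0.39 ± 0.16 (adjusted p = 0.314). Kcnq3, which forms the M-channel with other Kcnq subunits, was 427, 341, 241 and 301 on Nestin-positive replicates 1, 3, 4 and 5, and 243, 219 and 244 on Nestin-negative replicates 1, 4 and 5. It was thus higher in the Nestin-positive sample of each pair, though Nestin-positive replicate 4 lay within the Nestin-negative range. That difference was 0.45 ± 0.20 (adjusted p = 0.357), and 0.42 ± 0.17 with the block (adjusted p = 0.135; 0.0493 without pair 4). Kcnh8, Kcnh3 and Kcnh2 differed by -0.34 ± 0.18, -0.25 ± 0.28 and -0.21 ± 0.26, and Kcnh5 by 0.13 ± 0.41, which turned to -0.31 without Nestin-negative replicate 4.

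Auxiliary and silent subunits of the voltage-gated potassium channels gave 0 calls in 6 genes tested (limma, both fits; 2 at an unadjusted p under 0.05). Kcnip3, a calcium sensor that binds Shal-type pores, ranged from 203 to 365 in Nestin-positive and from 399.7 to 489 in Nestin-negative samples, a log2 difference of -0.58 ± 0.21 (SE, adjusted p = 0.244, and 0.0985 with the block). Kcne1l differed by -0.38 ± 0.16 (SE, adjusted p = 0.301), and the cytosolic beta subunit genes Kcnab2 and Kcnab1 by -0.27 ± 0.18 and 0.49 ± 0.26. Kcne1 was dim, reaching the median on 1 Nestin-positive and 2 Nestin-negative arrays, and differed by -1.18 ± 0.55 (adjusted p = 0.372). Kcns2, a silent modifier, differed by -0.26 ± 0.20.

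All 7 tested Scn symbols had differences below 0, and 0 passed either fit (limma; 0 at an unadjusted p under 0.05 without the block). Scn8a, the alpha subunit of mature axon initial segments, read 2055, 968, 914 and 826 on Nestin-positive replicates 1, 3, 4 and 5, and 2379, 1224 and 996 on Nestin-negative replicates 1, 4 and 5. Replicate 1 was by far the brightest in both groups, so the difference of -0.37 ± 0.36 (SE, adjusted p = 0.700) came to 0.00 without Nestin-negative replicate 1 and to -0.66 without Nestin-positive replicate 1. With the block it was -0.30 ± 0.11 (adjusted p = 0.0919). Scn2a, the alpha subunit of young axons, differed by -0.63 ± 0.37 (adjusted p = 0.491), and Scn3a, an embryonic alpha subunit near the array medians, by -0.35 ± 0.37.

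The beta subunit Scn3b had a small and even difference of -0.24 ± 0.12 (adjusted p = 0.430), from 461 to 540.0 in Nestin-positive and from 581 to 626 in Nestin-negative samples, with no overlap. Scn2b differed by -0.72 ± 0.34 (adjusted p = 0.383). The epithelial channel subunit Scnn1a, at the array medians, differed by -0.42 ± 0.44, and the splicing factor gene Scnm1 by -0.05 ± 0.14.

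Calcium channel genes included 3 that were lower with the block (2 when Cacna2d2 is left out) and 0 without it, out of 10 tested (limma; 4 at an unadjusted p under 0.05). Cacna1e, the R-type pore, read 196, 168, 199.8 and 236 on Nestin-positive replicates 1, 3, 4 and 5, and 795, 394 and 241 on Nestin-negative replicates 1, 4 and 5. Nestin-negative replicate 1 was far above the others of its group, and replicate 5 nearly touched the Nestin-positive range. The log2 difference was -1.09 ± 0.34 (SE, adjusted p = 0.172), -0.63 when Nestin-negative replicate 1 was dropped, and -1.01 ± 0.24 with the block (adjusted p = 0.00895). That blocked call was lost without pair 1 (-0.51, adjusted p = 0.164).

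Cacna1b, the N-type pore of presynaptic terminals, was 901, 441, 405 and 544 on Nestin-positive replicates 1, 3, 4 and 5, and 1243, 555 and 657 on Nestin-negative replicates 1, 4 and 5. These groups overlapped and replicate 1 was high in both. The difference was -0.50 ± 0.32 (adjusted p = 0.544), and -0.40 ± 0.12 with the block (adjusted p = 0.0428). Cacna1c and Cacna1d, both L-type pores, differed by -0.83 ± 0.33 (adjusted p = 0.290) and -0.24 ± 0.28, and Cacna1a, the P/Q-type pore of cerebellar synapses, by -0.32 ± 0.20 (adjusted p = 0.520).

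Alpha2delta subunits carry pores to the cell surface, and 3 were tested. Cacna2d2 was dim in all 4 Nestin-positive samples (39.8 to 68.7) and above the array median in the 3 Nestin-negative ones (101 to 182). It was at least 1.60-fold lower, taken as the Nestin-negative mean over the Nestin-positive array medians (adjusted p = 0.133, and 0.00888 with the block). Cacna2d2 passed the dim filter through the Nestin-negative arrays alone, so that a difference was built into its selection and its call supports nothing. Cacna2d1 was bright in both groups, from 3032 to 6173 and from 2445 to 5487, and differed by 0.12 ± 0.29 (adjusted p = 0.889). Cacna2d3 differed by -0.48 ± 0.34. The beta subunit Cacnb1 was at 98.5 to 114 on Nestin-negative arrays and at 16.6 to 82.2 on Nestin-positive ones, above the median on 1 of those 4 (difference -1.31 ± 0.53, adjusted p = 0.294, and 0.0641 with the block). Cacnb4, a cerebellar beta subunit, differed by -0.12 ± 0.27.

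Pacemaker channel genes were tested for Hcn2 and Hcn3. Hcn3 ranged from 136 to 186 in Nestin-positive and from 194 to 232 in Nestin-negative samples (difference -0.45 ± 0.19, adjusted p = 0.320), and Hcn2 differed by -0.54 ± 0.26 (adjusted p = 0.396). The noncoding Kcnq1ot1, which lies antisense to Kcnq1, differed by 0.23 ± 0.45 and was again brightest on replicate 1 of both groups (1195 and 859.9). Kcnmb4os2, named as the opposite strand of Kcnmb4, differed by -0.37 ± 0.18 (adjusted p = 0.389).

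Arrays within a group were not alike for these genes. Relative to each gene's mean over the 7 arrays, the median log2 level of the 52 genes was 0.45, 0.14 and 0.21 on Nestin-negative replicates 1, 4 and 5. It was -0.03, -0.30, -0.22 and -0.17 on Nestin-positive replicates 1, 3, 4 and 5, while over all genes tested it stayed between -0.07 and 0.05. Nestin-negative replicate 1 was the brightest array for 24 of the 52 genes, and Nestin-positive replicate 3 the dimmest for 17. Between same-numbered samples, 39 of the 52 genes (75.0%) had the lower value on the Nestin-positive side in all 3, where 23.0% of all genes tested were, and 3 (Kcnq3, Kcnj12 and Cacna2d1) were higher in all 3. The groups did not overlap for 17 of the 52, all of them lower (32.7%, where 9.11% of all genes tested were lower without overlap and 5.87% higher).

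**Figure D3:**
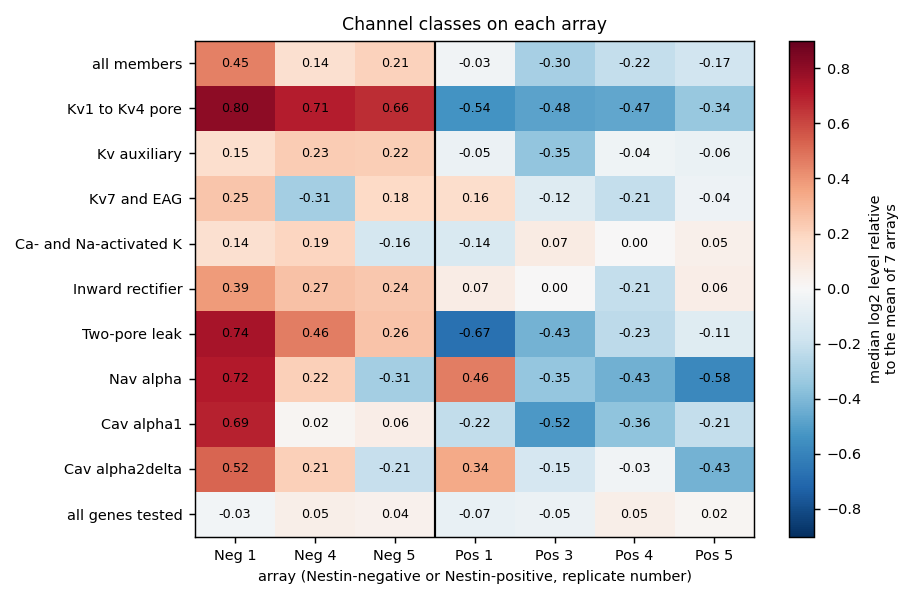
Median log2 level of each class of channel genes with at least 3 tested members on each array, relative to each gene's mean over the 7 arrays; the black line divides Nestin-negative (left) from Nestin-positive arrays (right). Kv1 to Kv4 pores are between 0.66 and 0.80 on Nestin-negative arrays and between -0.54 and -0.34 on Nestin-positive ones, whereas sodium channel alpha subunits are high on replicate 1 of both groups (0.72 and 0.46).

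Several probe sets read the same gene in 18 cases, and 13 of these genes had differences below 0 in every kept probe set. In 1 gene, the noncoding Kcnq1ot1, all 4 kept probe sets were above 0, from 0.23 to 0.92. Kcna1 was read by 3, with differences of -1.69, -1.91 and -2.21, and Kcnd2 by 3, from -1.45 to -1.13. Kcna2 gave -1.61 and -1.57. The Kcna1 probe set at -1.91 and the Kcna2 probe set at -1.57 were dim on all 4 Nestin-positive arrays. They passed the filter through the Nestin-negative arrays alone, so a difference was built into their selection. Both enter the count without overlap given below, and the Kcna1 probe set also enters the blocked count. Probe sets disagreed in sign for Cacna2d1, Cacnb4, Kcnj3 and Scn8a, and those of Kcnc1 spread from -0.95 to -0.24. Tested one by one over 20162 probe sets, 0 of the 84 channel probe sets passed (limma; 26 at an unadjusted p under 0.05, all lower), as did 0.00% of all, while 15 from 10 genes passed with the block, all lower (3.34% of all were lower and 1.53% higher). Groups did not overlap for 25 of the 84, all lower (7.25% of all were lower without overlap and 5.12% higher).

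**Figure D4:**
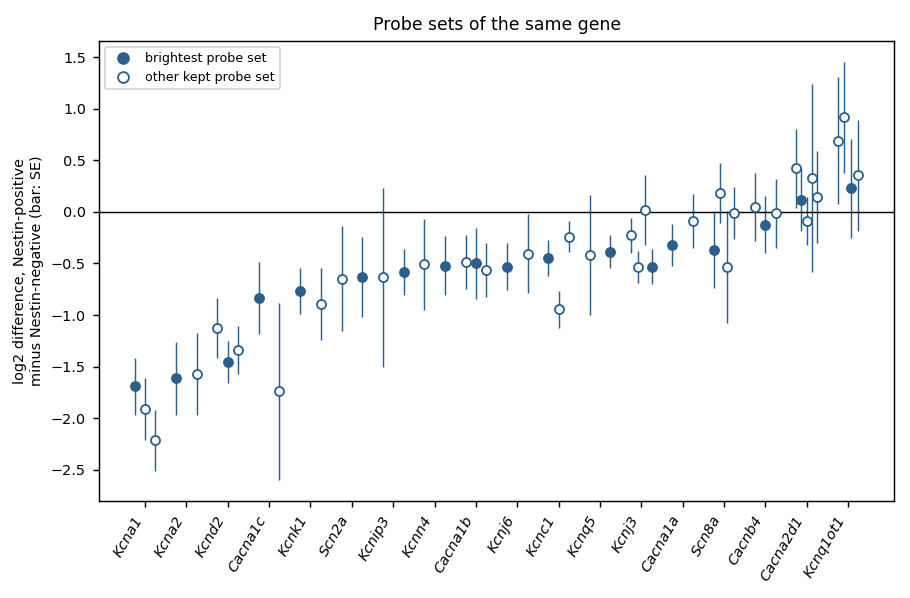
Fitted log2 differences (Nestin-positive minus Nestin-negative) with standard errors for the 18 channel genes read by more than 1 kept probe set; filled points are the brightest probe set, which stands for the gene. All probe sets of Kcna1, Kcna2 and Kcnd2 lie below -1.1, and those of Cacna2d1, Cacnb4, Kcnj3 and Scn8a lie on both sides of 0. An open point of Kcna1 (-1.91) and that of Kcna2 (-1.57) passed the filter through the Nestin-negative arrays alone.

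The 64 genes that were not tested stayed mostly under the array median: 52 reached it on 0 arrays, 7 on 1 and 5 on 2. They include the muscle-type pore Cacna1s, the photoreceptor-type Cacna1f, the cardiac-type Kcne2 and Kcnq1, the sensory neuron pores Scn10a and Scn11a, and the T-type pores Cacna1g and Cacna1h. Low signal on a MAS5 array does not show that a transcript is missing. Of the 5 genes that reached it on 2 arrays, Kcnk13, known from microglia, and Kcne4 did so on 2 Nestin-negative and 0 Nestin-positive arrays. Kcnc2 and Kcnc4 did so on 2 Nestin-positive and 0 Nestin-negative arrays, and Kcnmb2 on 1 of each.

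Partner genes encode proteins that bind, anchor or oppose these channels. Of 24 tested (33 listed), 0 passed limma's test (7 at an unadjusted p under 0.05), 21 had differences below 0, and the median was -0.27. With the block 6 were lower and 0 higher: Nfasc, Dpp6, Rims1, Fgf13, Dlg2 and Atp1b1. Over all genes tested, 54.5% of differences were below 0, with a median of -0.03. The block called 6.39% of all genes lower and 3.58% higher. Nfasc, an anchor of the axon initial segment, read 107, 63.5, 135 and 129 on Nestin-positive replicates 1, 3, 4 and 5, and 284, 261 and 305 on Nestin-negative replicates 1, 4 and 5. These groups were apart, with a log2 difference of -1.44 ± 0.28 (SE, adjusted p = 0.0511; 0.0499 without Nestin-positive replicate 3, and 0.000581 with the block).

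Dpp6, an auxiliary partner of Shal-type pores, ranged from 168 to 229.7 in Nestin-positive and from 325 to 367 in Nestin-negative samples. Its difference was -0.80 ± 0.17 (limma, adjusted p = 0.0752, and 0.00558 with the block). Fgf13, which binds sodium channels and microtubules, differed by -0.52 ± 0.15 (adjusted p = 0.137, or 0.0108 blocked), and the calcium channel tether Rims1 by -1.05 ± 0.27 (adjusted p = 0.104, and 0.00335 with the block). The giant ankyrin gene Ank3 had a difference of -0.22 ± 0.11 (adjusted p = 0.403) without overlap.

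Genes of neuronal differentiation and of several other cell types also differed between these samples, and their part in the channel results was not tested. Over all genes tested, 54.5% of differences were below 0, and 0.577% were called lower, or 6.39% with the block. Of 25 tested granule neuron differentiation genes, 24 had differences below 0 (median -0.45), 3 were called lower and 14 with the block. Their summed signal was 81249 to 95892 in Nestin-positive and 108230.0 to 118445 in Nestin-negative samples. All 10 tested microglia and macrophage markers of 16 listed had differences below 0 (median -2.77), 2 called and 10 with the block. That sum was 359 to 1193 against 2196 to 8192, and Aif1, C1qc, Cd68, Itgam, Lyz2 and P2ry12 lay below the median on every Nestin-positive array. Of the tested markers, C1qc and Lyz2, which is 1 of the 2 called, thus passed the filter through the Nestin-negative arrays alone. Cx3cr1, C1qa and C1qb reached the median on 1 Nestin-positive and 3 Nestin-negative arrays. A difference was therefore partly built into this list. By array the microglial sum was 359, 437, 733 and 1193 for Nestin-positive replicates 1, 3, 4 and 5, and 2196, 3275 and 8192 for Nestin-negative replicates 1, 4 and 5.

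Pericyte and smooth muscle markers (9 tested, median -1.78, 8 lower with the block) summed to 509.8 to 2033 against 1271 to 9368, and meningeal fibroblast markers (6 tested, median -1.76, 5 lower with the block) to 3694 to 5894 against 5489.9 to 12074. Astrocyte and Bergmann glia markers (16 tested, median -0.10, 7 lower and 2 higher with the block) summed to 17216 to 45468 against 13676 to 33236. Endothelial markers (11 tested) had a median of -0.41 and 0 calls in both fits (limma; 0 at an unadjusted p under 0.05), and oligodendrocyte lineage markers (7 tested) a median of -0.31, with 2 lower and 2 higher under the block. GABAergic interneuron markers (5 tested) had a median of -0.37 and Purkinje cell markers (6 tested) of -0.24, each with 2 lower and 1 higher under the block. Gad1 of these lists and Gpr17 of the oligodendrocyte list, both lower with the block, passed the filter through the Nestin-negative arrays alone. For comparison, 6.39% of all genes tested were lower and 3.58% higher with the block. Since these are bulk samples, fewer cells of a type and less RNA per cell cannot be told apart.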

How the data were processed

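Total RNA extracted with Trizol from uncultured sorted cells was labelled with biotin and hybridised to 1-colour arrays, per the labels' protocols. The deposited values are MAS5 signal, a linear intensity per probe set, per the submitters' processing notes, which name no version. The authors' scaling, read from the values, gives a mean intensity of 500 without the lowest and highest 2% on each of the 7 arrays. MAS5 subtracts mismatch signal, so ratios of dim values are noisy.

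Of 45101 probe sets, 64 controls were left out. The platform annotation named 1 gene for 34945, several for 932 and none for 9160; symbols were updated by Entrez ID (34741 matched). No pseudocount was added before log2. Probe sets had to be at or above the array median on at least 3 arrays, and each gene was read from its brightest one (11089 genes). Groups follow the sample titles. Limma 3.58.1 in R 4.3.3 (eBayes with trend, two-sided, Benjamini-Hochberg over all genes, threshold 0.05) was run on all 7 arrays without covariates and was checked on simulated data. Alternatives were other scaling, filters, offset, probe set choice, moderation, the block and each array left out.

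Deviations from the group means correlated across genes with r = 0.71, 0.39 and 0.47 for the same-numbered samples 1, 4 and 5, against -0.60 to 0.19 for others; all passed the preset 0.1, so equal numbers were treated as pairs; the labels do not state a pairing. The blocked fit has 2 residual degrees of freedom per gene, and 1 with a pair left out, so its p-values rest mostly on spread pooled over genes.

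Members and lists were chosen with earlier results of these data known. Named genes are called members, up to 3 per class by p, members called with the block, 12 textbook granule cell channels where tested, and partner genes called or among the 4 smallest p; Kcnd2 and Kcnk2 promoters, and members given with a difference alone, complete the account and were chosen after their values were seen. The marker lists overlap: Gad1, Cspg4 and Pdgfra stand in 2 each.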

Additional observations from a re-analysis of the deposited data

Results flagged for a closer look

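A test for a single array apart from the other 3 of the Nestin-positive group was made for the 52 tested channel genes, and 6 of them had one; chance gives about 1 in 20. Kcnk1 read 1449 on Nestin-positive replicate 3 against 2546 to 2589 on the others. Kcnj11 read 230.1 on the same array against 839 to 1016. Kcnh3 was at 71.5 on Nestin-positive replicate 4 against 102 to 105 on the others. Kcne1l read 569 on that array against 405 to 414. Kcna2 read 79.7 there against 34.8 to 39.2, and it passed limma's test without that array (adjusted p = 0.0359). Without that array Kcna2 is dim on every Nestin-positive array left. It then stands in the test through the Nestin-negative arrays alone, so that call supports nothing. Kcnd2 was at 256 on Nestin-positive replicate 1 against 403 to 426.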

How the results depend on the processing

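The median difference of the channel genes stayed between -0.49 and -0.32 under every alternative run. Their count of 3 called became 0 with quantile normalization, with median centring and without the intensity trend, and 0 to 4 with an array left out. No share over all genes stands beside these counts. The count was 12 with the replicate block, and 9, 14 and 9 with the block without pairs 1, 4 and 5. Those fits without a pair were added after seeing the data and also lack a share over all genes. Of the channel probe sets 0 were called, but 1 with dim values raised, 15 with the replicate block, and 10, 20 (2 higher) and 17 (1 higher) when pairs 1, 4 and 5 were dropped in turn. Of the partner genes 0 were called, but 1 (Nfasc) with dim values raised or log2(signal + 32), 6 with the replicate block, and 0 to 1 with an array left out. Channel genes without overlap numbered 17, and 20 to 25 with an array left out. Leaving out an array can end an overlap but never make one, so this count could not fall. It has no share over all genes beside it and says nothing about robustness.

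Over the 52 tested channel genes, Nes and 5 partner genes, the sign turned under some alternative for 11, all of them channel symbols, and none passed limma's test where it turned. With an array left out, Cacna1d ranged from -0.47 to 0.034, Cacna2d1 from -0.17 to 0.41 (-0.09 when Nestin-positive 1 was dropped), Cacnb4 from -0.25 to 0.038, Kcnh2 from -0.43 to 0.0030 and Kcnh5 from -0.31 to 0.50. Kcnq1ot1 ranged from -0.092 to 0.58 (-0.01 when Nestin-negative 4 was dropped), Scn8a from -0.66 to 0.0038 and Scnm1 from -0.13 to 0.012 (0.0019 and 0.00065 when Nestin-positive 1 and Nestin-negative 5 were dropped). Scnm1 was 0.0059 with median centring and Kcnh5 -0.15 with dim values raised. With the replicate block, Kcnq1ot1 was -0.18 and Kcnt2 -0.11 without pair 1; Kcnh5 was -0.11, Kcnn2 -0.040 and Scnn1a 0.041 without pair 4; Kcnt2 was -0.030 and Scnn1a 0.091 without pair 5. The causes were not tested. The number of arrays and dim signal near the array median limit the precision.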
